A study of Mus musculus with 12 samples.

Results

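The report describes 37 genes listed as directly activated by p53, among 24452 gene symbols measured in the somatosensory cortex of neonatal mice. Whether p53 activates each of them in the mouse was not tested. The genes were chosen by name as p53 targets, and the counts of their 65 annotated transcripts, of 35840 in all, were added up per symbol. They were read in 12 RNA libraries, 3 in each of 4 groups: wild-type (WT) mice given saline, WT mice given ethanol (EtOH), p53 knockout (KO) mice given saline and p53 KO mice given ethanol. All were male C57BL/6 mice on postnatal day 7, injected into the peritoneum, with the cortex taken 8 hours after the last injection. The KO allele is the constitutive Trp53tm1Tyj deletion, so p53 was missing from every cell type throughout development, and the saline injection was shared by both control groups. Libraries are named by group and by the library number in the labels. Nothing in the labels ties a library to a litter, and p-values measure the spread between these libraries.

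The tumour suppressor p53 is a transcription factor that is kept scarce by Mdm2, an E3 ubiquitin ligase which is itself a p53 target, and it accumulates after DNA damage and other stress. It then binds DNA as a tetramer and raises genes that halt the cell cycle, trigger apoptosis, repair DNA and alter metabolism. In the neonatal rodent brain, ethanol given during synapse formation is a standard model of developmental neurotoxicity in which many neurons die by apoptosis. The targets were grouped by these roles into 9 cell cycle genes, 15 apoptosis genes, 5 DNA repair genes and 8 genes of metabolism or secreted factors.

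Promoter windows from RefSeq (GRCm38.p6, 250 bases before to 50 bases after an annotated start site) were found for 28 of the 37 targets. The p53 decamer, the motif of which a full p53 response element holds a pair, was searched by its consensus on both strands, which are equivalent because the motif is palindromic. It was present in the windows of 12 of the 28 genes (42.9%), against 9.55% of 27025 genes in the whole table, and a pair of decamers at most 13 bases apart was found in the window of 1 target, Cdkn1a (3.57%), against 0.074% of all genes. The genes with a decamer were Abhd4, Aen, Ccng1, Cdkn1a, Ei24, Gadd45a, Gtse1, Polk, Rps27l, Sesn1, Shisa5 and Siva1. Because the genes were picked as known targets, this share is a description of the choice. A match is not a bound site, and many known p53 sites lie outside such windows. Windows of 4 genes are shown 5′ to 3′ on the gene's strand, since 2 of them (Cdkn1a and Ccng1) are the textbook cell cycle targets and the others (Ei24 and Rps27l) are among those that differed most between groups. Capitals mark each decamer.
Cdkn1a, chr17:29090729-29091028, plus strand: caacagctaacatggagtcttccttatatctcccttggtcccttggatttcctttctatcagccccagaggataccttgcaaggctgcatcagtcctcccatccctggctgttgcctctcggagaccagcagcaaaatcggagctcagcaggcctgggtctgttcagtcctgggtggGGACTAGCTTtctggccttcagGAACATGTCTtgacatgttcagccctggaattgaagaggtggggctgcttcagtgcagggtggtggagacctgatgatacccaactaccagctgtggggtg
Ccng1, chr11:40755237-40755536, minus strand: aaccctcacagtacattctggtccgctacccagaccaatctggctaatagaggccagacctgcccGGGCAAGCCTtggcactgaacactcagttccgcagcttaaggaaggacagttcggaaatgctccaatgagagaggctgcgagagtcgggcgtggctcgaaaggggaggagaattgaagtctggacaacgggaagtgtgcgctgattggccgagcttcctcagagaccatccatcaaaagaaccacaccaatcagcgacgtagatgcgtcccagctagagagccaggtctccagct
Ei24, chr9:36797285-36797584, minus strand: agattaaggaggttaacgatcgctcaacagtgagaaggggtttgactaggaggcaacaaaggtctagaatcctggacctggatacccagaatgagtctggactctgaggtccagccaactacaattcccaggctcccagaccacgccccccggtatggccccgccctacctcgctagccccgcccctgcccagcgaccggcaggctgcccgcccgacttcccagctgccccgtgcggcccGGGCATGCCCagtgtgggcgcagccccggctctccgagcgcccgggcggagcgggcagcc
Rps27l, chr9:66946163-66946462, plus strand: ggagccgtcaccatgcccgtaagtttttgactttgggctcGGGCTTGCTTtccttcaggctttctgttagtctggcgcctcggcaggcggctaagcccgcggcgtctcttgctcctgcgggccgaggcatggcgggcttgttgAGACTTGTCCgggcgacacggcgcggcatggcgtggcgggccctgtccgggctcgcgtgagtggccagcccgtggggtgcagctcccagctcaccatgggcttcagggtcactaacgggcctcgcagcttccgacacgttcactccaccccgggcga
The pair in the Cdkn1a window began at positions -73 and -51 from the start site, the decamer of Ccng1 at -185 and that of Ei24 at -10. Those of Rps27l began at -210 and -107 from a start site that lies downstream of another annotated start of the gene, so this window lies within the transcribed region. The Cdkn1a window belongs to the start of a transcript with 7.46% of the gene's counts. The Cdkn1a transcript with 92.5% starts downstream, at 29093769, so the pair is not in its proximal promoter window. For Ei24, the transcript with 89% of the counts starts at 36797068, downstream of the window shown.

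Depth differed widely between libraries and set what could be read for the weakly expressed targets. Total counts lay between 5060577 and 17066392 in 10 libraries, and were 1953154 in WT saline replicate 3 and 719735 in KO ethanol replicate 12. These 2 libraries are also the only ones whose label opens with L rather than P, a letter that the labels do not explain. The study took its tissue partly by laser microdissection and partly by punch, and which library came from which was not given in the sources used here. Of the 37 targets, 22 had under 10 counts in KO ethanol replicate 12 and 6 had none, where 3 counts, the limit that a count of 0 allows, correspond to 5.01 CPM (counts relative to the library total, corrected for RNA composition by TMM factors). Summed choroid plexus markers (Ttr, Folr1, Kcne2 and Clic6) ranged from 1.67 to 4997 CPM and were high in WT ethanol replicate 4, KO saline replicate 9 (2249 CPM) and KO ethanol replicate 18 (2211 CPM). WT ethanol replicate 4 also had the lowest sum of cortical neuron markers, 200 CPM against up to 1079 CPM, and WT saline replicate 1 the highest sum of fibroblast markers, 535 CPM against a low of 5.14 CPM. Red blood cell markers (5 genes, with the haemoglobins Hbb-bs and Hba-a1 among them) summed to 1319, 337 and 482 CPM in the WT saline libraries, 93.2, 145 and 50.3 CPM in WT ethanol, 35.9, 93 and 99.3 CPM in KO saline and 32.1, 765 and 29 CPM in KO ethanol libraries. WT saline thus lay above WT ethanol and KO saline without overlap, as the targets Ei24, Pmm1 and Siva1 do, and the high KO ethanol library was the shallow replicate 12. The part of these markers in the results was not tested. In whole tissue, fewer cells of a type and less RNA per cell cannot be told apart.

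Reads of Trp53 were present in KO libraries, at 27.6, 11.1 and 11.7 CPM under saline and 28.1, 23.4 and 28.7 CPM after ethanol. WT libraries held 3.67, 26.2 and 14.4 CPM under saline and 14.8, 7.23 and 20 CPM after ethanol. The groups overlapped, and the main effect of Genotype was 0.59 ± 0.42 (SE) on the log2 scale (edgeR quasi-likelihood test, adjusted p = 0.658). The KO allele leaves part of the transcript in place and the counts span the whole transcript, so the level of Trp53 does not check the labels. The share of Trp53 counts assigned to an annotated transcript variant did differ. It was 7.01, 7.01 and 16.6% in WT saline and 21.1, 7.01 and 23.1% in WT ethanol libraries. In KO libraries it was 68.5, 70.6 and 65.7% under saline and 70.6, 7.01 and 48.3% after ethanol. The 7.01% among KO libraries came from the shallow replicate 12. The identical 7.01% stood in WT saline replicates 1 and 3 and in WT ethanol replicate 5. The reason for this shared value, and whether it measures the variant in those libraries, was not tested.

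Expression per transcript length, in the deposited RPKM (reads relative to transcript length and library total), ranged over the targets from a median of 0.0688 for Eda2r, a receptor of the tumour necrosis factor family, to 101 for Pmm1, a phosphomannomutase. The other strongly expressed targets were Plk2, a polo-like kinase active at synapses (74.5 RPKM), Ei24, an endoplasmic reticulum protein (63.2 RPKM), and Rps27l, a ribosomal protein S27 homologue (61.7 RPKM). Cdkn1a (p21), the inhibitor of cyclin-dependent kinases, had a median of 15.3 RPKM and Ccng1 (cyclin G1) one of 16.9 RPKM. The death receptors Fas and Tnfrsf10b stood at 0.443 and 0.273 RPKM. Of the 37 targets, 36 passed the filter on low counts and Eda2r did not.

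The comparison of KO with WT mice under saline asks how the targets differ at baseline without p53. Of the 36 targets tested, 7 were lower in KO mice (19.4%, against 10.5% of the 14739 genes tested) and 3 were higher (8.33%, against 9.14%) at an unadjusted p under 0.05. The lower ones were the apoptosis genes Ei24, Shisa5, Rps27l and Perp, the cell cycle gene Ptp4a3 and the metabolic genes Pmm1 and Dcxr, and the higher ones were Ddb2, Polk and Sesn2. The median log2 fold change of the targets was -0.10, against 0.04 for all genes. At the study's adjusted level of 0.30, 11 targets were called, where 25.8% of all genes were, and none passed 0.05, the lowest adjusted p among the targets being 0.176. At an adjusted p under 0.30, none was called in the 3 fits on RPKM (limma with a pseudocount of 1 or 0.1, and a two-way linear model). Groups did not overlap for 4 lower targets (Perp, Ei24, Siva1 and Pmm1; 10% of all genes) and 5 higher ones (Cyfip2, Ddb2, Xpc, Polk and Sesn2; 12.9% of all genes).

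Among the apoptosis genes, Ei24 was read at 361, 186 and 373 CPM in WT saline replicates 1, 3 and 13, and at 127, 152 and 142 CPM in KO saline replicates 7, 8 and 9. The groups did not overlap, and Ei24 was 2.19-fold lower in KO mice (log2 -1.13 ± 0.35, edgeR, unadjusted p = 0.00617, adjusted p = 0.176). Shisa5 (Scotin), an endoplasmic reticulum protein linked to p53-dependent cell death, was at 118, 39.6 and 125 CPM in WT and at 41.0, 33.6 and 38.0 CPM in KO libraries. The shallow WT replicate 3 fell among the KO values, and Shisa5 was 2.52-fold lower in KO mice (log2 -1.33 ± 0.43, edgeR, adjusted p = 0.176). Both calls held when each library was left out in turn. Ei24 was not called with library totals alone (-0.63) or by limma on RPKM (-0.48 and -0.49 with the 2 pseudocounts), and Shisa5 was not called with library totals alone (-0.79) or with the trends of fold change on transcript length and GC content removed (-0.63).

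Rps27l stood at 356, 24.7 and 71.1 CPM in WT and at 27.7, 32.2 and 24.5 CPM in KO libraries. Its difference rested on WT saline replicate 1: the log2 fold change was -2.43 ± 0.71 with that library and -0.81, no longer called, without it. It was also -0.45 and not called with the length and GC trends removed, and not called in the 3 fits on RPKM (-0.79 to -1.14). Perp, a membrane protein of desmosomes and an apoptosis effector, behaved alike, at 36.4, 8.23 and 13.4 CPM in WT and a narrow 7.45, 7.20 and 7.11 CPM in KO libraries. Its groups did not overlap, and its log2 fold change of -1.43 ± 0.50 (edgeR, adjusted p = 0.179) became -0.62, no longer called, without WT saline replicate 1. Perp was also not called with library totals alone (-0.77) or in the two-way model of RPKM (-1.43). The other 10 tested apoptosis genes were not called, and 9 of the 14 tested had a negative fold change, with a median of -0.48.

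The cell cycle genes gave 1 call in 9. Ptp4a3, a protein tyrosine phosphatase, was at 65.6, 139 and 147 CPM in WT and at 78.0, 37.1 and 65.9 CPM in KO libraries. The values overlapped, and the log2 fold change was -0.96 ± 0.37 (edgeR, adjusted p = 0.198). It was not called without WT saline replicate 13 (-0.76) or KO saline replicate 8 (-0.70). Nor was it called with library totals alone (-0.57) or when only the groups compared were fitted (-0.96). Cdkn1a, the most used marker of p53 activity, had 45.9, 27.8 and 54.9 CPM in WT and 22.3, 22.3 and 36 CPM in KO libraries, with a log2 fold change of -0.68 ± 0.53 (edgeR, adjusted p = 0.48). Ccng1 was spread from 63.2 to 108 CPM in WT and from 32.7 to 121 CPM in KO libraries, and its log2 fold change was -0.05 ± 0.51 (edgeR, adjusted p = 0.971). Neither difference exceeded the spread between libraries.

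The DNA repair genes had fold changes in the opposite direction: all 5 were positive, with a median of 1.01, and 2 were called. Ddb2, which recognizes ultraviolet lesions for nucleotide excision repair, was at 7.35, 3.60 and 5.79 CPM in WT and at 20.8, 12.1 and 10.3 CPM in KO libraries. Polk, the translesion polymerase kappa, was at 4.96, 2.06 and 2.45 CPM in WT and at 7.01, 9.72 and 10.0 CPM in KO libraries. Both genes were higher in every KO than in every WT library, with log2 fold changes of 1.33 ± 0.57 for Ddb2 and 1.46 ± 0.63 for Polk (edgeR, adjusted p = 0.229 for each). Ddb2 was not called without KO saline replicate 7 (0.93), WT saline replicate 3 (1.11) or WT saline replicate 13 (1.34), and Polk was not called without WT saline replicate 3 (1.26), WT saline replicate 13 (1.27), KO saline replicate 8 (1.40), KO saline replicate 9 (1.36) or KO ethanol replicate 18 (1.44). Xpc, the partner of Ddb2 in damage recognition, had 8.45, 8.23 and 9.66 CPM in WT against 19.3, 16.9 and 17.2 CPM in KO libraries, and passed only the adjusted level of 0.30 (log2 1.01 ± 0.47, edgeR, unadjusted p = 0.0501, adjusted p = 0.255).

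Of the metabolic and secreted targets, Pmm1 was lower in KO mice, at 112, 128 and 123 CPM against 341, 170 and 278 CPM in WT (log2 -1.12 ± 0.49, edgeR, adjusted p = 0.23). Dcxr, a carbonyl reductase, was at 1.77, 1.35 and 2.72 CPM in KO against 4.78, 2.57 and 8.32 CPM in WT libraries (log2 -1.48 ± 0.61, edgeR, adjusted p = 0.213). Sesn2, a sestrin that restrains mTORC1 signalling, was higher, at 8.11, 6.09 and 15.0 CPM in KO against 0.184, 3.08 and 4.16 CPM in WT libraries (log2 1.95 ± 0.83, edgeR, adjusted p = 0.223). The groups did not overlap for Pmm1 and Sesn2 and overlapped for Dcxr. Each of the 3 calls was lost without at least 1 library. Pmm1 was lost without WT saline replicate 1 (-0.91), WT saline replicate 13 (-1.08) or any of KO saline replicates 7, 8 and 9 (-1.10, -1.16 and -1.15). Dcxr was lost without WT saline replicate 13 (-0.96), KO saline replicate 7 (-1.46) or KO saline replicate 8 (-1.27), and Sesn2 without WT saline replicate 1 (1.36) or KO saline replicate 9 (1.49), while it rose to 2.94 without WT saline replicate 13.

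Other settings ended several of these calls. Removal of the length and GC trends left Pmm1 at -0.81 and Dcxr at -0.93, neither called. Ddb2, Polk, Sesn2 and Pmm1 were not called when only the transcript with the highest count was used, nor in the 3 fits on RPKM. Ddb2, Polk and Sesn2 have 1 annotated transcript each, so that setting changed the fit, made over all transcripts, and not their counts. Their log2 values there were 1.29, 1.43 and 1.92.

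**Figure D1:**
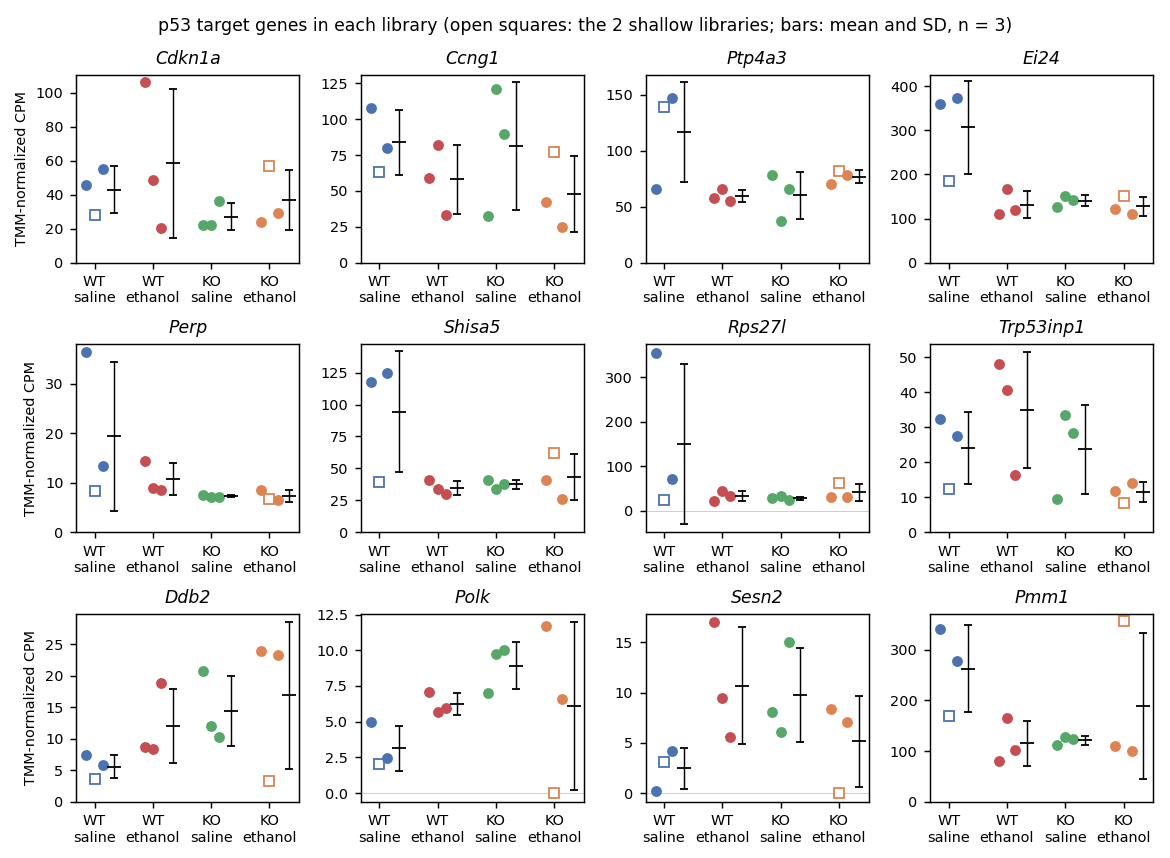
TMM-normalized CPM of 12 targets in each library by group (horizontal axis), with the mean and SD of 3 libraries beside the points and open squares for the 2 shallow libraries. Shisa5 and Ei24 are high in WT saline replicates 1 and 13, Rps27l in WT saline replicate 1 (356 CPM), and Cdkn1a in WT ethanol replicate 4 (106 CPM).

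The split between lower and higher calls depended on the scaling, for the targets as for all genes. With library totals alone, without the TMM factors that correct for RNA composition, the median of all genes in this comparison was 0.49 rather than 0.04, and the calls were 1 lower and 6 higher in place of 7 and 3. That is 2.78% and 16.7% of the targets, where 472 of 14739 genes were lower and 2527 higher. The TMM factor of WT saline replicate 1, 0.564, was the lowest of the 12. Relative to the median of all genes, the targets' median was below it under both scalings (0.40 against 0.49 and -0.10 against 0.04).

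Ethanol was compared with saline in WT mice to ask whether the exposure raised p53 targets where p53 was present. Of the 36 targets, 1 was higher (2.78%, against 9.99% of all genes) and 5 were lower (13.9%, against 8.36%), and the median log2 fold change was 0.06, the same as for all genes. Sesn2 was the higher one, and Ei24, Shisa5, Rps27l, Ptp4a3 and Pmm1 were the lower ones. At the adjusted level of 0.30, 8 targets were called (22.5% of all genes), Xpc and Ercc5 joining with higher levels, and none passed 0.05. That count was 0 when only the 2 WT groups were fitted, where 39 of all genes passed in place of 3310, and 0 in each of the 3 fits on RPKM. With library totals alone, 6 targets were higher and 3 lower (16.7% and 8.33%), where the median of all genes rose to 0.49. In that setting 2676 of 14739 genes were higher and 318 lower. This comparison shares the WT saline libraries with the one above, so the recurrence of the same genes in both is not independent.

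Ei24 was at 110, 166 and 119 CPM in WT ethanol replicates 4, 5 and 14, below each WT saline library (log2 -1.22 ± 0.35, edgeR, adjusted p = 0.184). Shisa5 was at 40.8, 33.7 and 29.9 CPM, overlapping with the saline group through its shallow replicate 3 (log2 -1.44 ± 0.43, edgeR, adjusted p = 0.185). Both were called in each fit that left out 1 library and in each other setting run. Rps27l was at 21.1, 44.6 and 32.7 CPM after ethanol, and its log2 fold change of -2.21 ± 0.70 (edgeR, adjusted p = 0.197) became -0.60, not called, without WT saline replicate 1. With the length and GC trends removed it was -0.45 (unadjusted p = 0.119 by edgeR), and it was not called in the 3 fits on RPKM (-0.71, -0.72 and -1.03).

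Ptp4a3 was at 57.5, 65.5 and 55.2 CPM and Pmm1 at 79.4, 165 and 102 CPM after ethanol, with log2 fold changes of -0.98 ± 0.37 and -1.19 ± 0.49 (edgeR, adjusted p = 0.216 and 0.232). The groups did not overlap for either. Ptp4a3 was not called without WT saline replicate 13 (-0.78) or with library totals alone (-0.64). Pmm1 was not called without WT saline replicate 1 (-0.98), WT saline replicate 13 (-1.14), WT ethanol replicate 4 (-1.0) or WT ethanol replicate 14 (-1.15). It was also not called with the length and GC trends removed (-1.07) or in the 3 fits on RPKM (-0.56 to -0.58). Sesn2 was at 17, 9.45 and 5.62 CPM after ethanol, above each saline library (log2 2.10 ± 0.83, edgeR, adjusted p = 0.223). It was not called without WT saline replicate 1 (1.48) or WT ethanol replicate 4 (1.57), and its value was 3.09 without WT saline replicate 13. Limma on log2(RPKM + 0.1) (2.04) and the two-way model of RPKM (1.63) did not call it either.

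The 5 DNA repair genes again all had positive fold changes, with a median of 0.95, and none had an unadjusted p under 0.05. Xpc was at 18.9, 12.7 and 22.0 CPM after ethanol, above each saline library (log2 1.01 ± 0.47, edgeR, adjusted p = 0.273). Ercc5 (XPG), an endonuclease of nucleotide excision repair, was at 31.5, 30.2 and 38.8 CPM after ethanol against 15.6, 29.3 and 11.7 CPM under saline (log2 0.86 ± 0.41, edgeR, adjusted p = 0.285). Ddb2 and Polk were also higher in every ethanol than in every saline library, without passing either threshold (unadjusted p = 0.0869 and 0.154 by edgeR). In all, 5 targets were higher without overlap (Ddb2, Xpc, Polk, Ercc5 and Sesn2; 11.3% of all genes) and 5 lower (Ptp4a3, Aen, Ei24, Siva1 and Pmm1; 8.3% of all genes).

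Cdkn1a had 106, 48.7 and 20.2 CPM in WT ethanol replicates 4, 5 and 14. These values held both the highest and the lowest of the 12 libraries, and the mean of 58.2 ± 43.5 CPM (SD, n = 3) compared with 42.9 ± 13.8 CPM under saline (log2 0.44 ± 0.52, edgeR, adjusted p = 0.668). WT ethanol replicate 4 had the highest value of the 12 libraries for 7 of the 36 targets (19.4%), namely Cdkn1a, Gtse1, Btg2, Trp53inp1, Sesn2, Abhd4 and Thbs1, and for 15.9% of all genes. It is the library with 4997 CPM of choroid plexus markers. WT saline replicate 1 was highest for 4 targets (11.1%), Perp, Phlda3, Rps27l and Sesn1, against 20.4% of all genes.

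**Figure D2:**
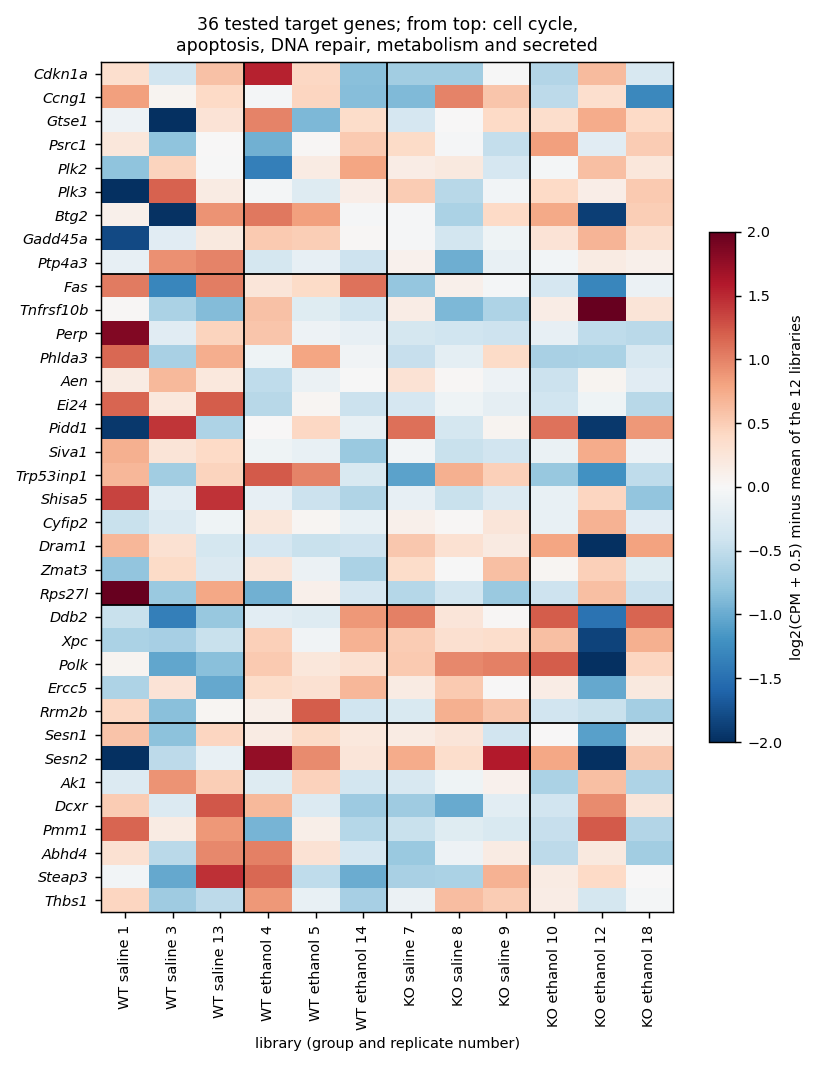
Deviation of log2(CPM + 0.5) from the mean of the 12 libraries for the 36 tested targets (rows, by role, separated by lines) in each library (columns, by group), with red above and blue below the mean and colours capped at 2 log2 units. WT saline replicate 1 stands out for Rps27l and Perp, WT ethanol replicate 4 for Cdkn1a and Sesn2, and the shallow KO ethanol replicate 12 for low Polk, Ddb2 and Xpc.

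In KO mice, ethanol was compared with saline to ask whether the targets responded without p53. None of the 36 was called in either direction, where 1.15% of all genes were higher and 2.01% lower at an unadjusted p under 0.05. DESeq2 called 1 target, higher after ethanol, where 331 of 14669 genes were higher and 252 lower. The lowest adjusted p among the targets was 0.999 (edgeR), and their median log2 fold change was 0.10, against 0.01 for all genes. The smallest unadjusted p belonged to Tnfrsf10b, the TRAIL receptor, whose 1.25, 0.351 and 0.526 CPM under saline and 1.26, 8.36 and 1.40 CPM after ethanol did not overlap (log2 1.75 ± 0.88, edgeR, unadjusted p = 0.0672). Its value of 8.36 CPM came from the shallow replicate 12. Gadd45a, a growth arrest gene, was the other target higher without overlap (3.89% of all genes), and Rrm2b (p53R2), a ribonucleotide reductase subunit that supplies nucleotides for repair, was the only one lower (6.87% of all genes).

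Rrm2b was at 16.7, 34.1 and 30.5 CPM under saline and at 15.8, 15.0 and 12.7 CPM after ethanol, a difference that did not pass the test (log2 -0.91 ± 0.48, edgeR, unadjusted p = 0.08). Trp53inp1, a nuclear protein induced by stress that promotes p53 activity, had 9.37, 33.4 and 28.2 CPM under saline and 11.7, 8.36 and 14.0 CPM after ethanol, and the groups overlapped (log2 -1.0 ± 0.54, edgeR, unadjusted p = 0.0852). Cdkn1a was at 26.9 ± 7.89 CPM under saline and 36.6 ± 17.7 CPM after ethanol (SD, n = 3 each), with a log2 fold change of 0.39 ± 0.54 (edgeR, adjusted p = 0.999). Between 0 and 4 targets were called when 1 library was left out, 4 of them without KO saline replicate 7 and 1 without any of KO ethanol replicates 10, 12 and 18. The share of all genes is not given for these fits.

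After ethanol, KO mice were compared with WT mice, a contrast that shares no library with the saline one. Trp53inp1 was the only target called, lower in KO mice (2.78% of the targets, against 2.26% of all genes), and no target was higher (0.977% of all genes). It was at 48.0, 40.6 and 16.2 CPM in WT and at 11.7, 8.36 and 14.0 CPM in KO libraries, without overlap (log2 -1.57 ± 0.55, edgeR, unadjusted p = 0.0124, adjusted p = 0.982). Without WT ethanol replicate 4 it was -1.25 and not called. With the length and GC trends removed it was -0.93 and not called (edgeR, unadjusted p = 0.0507), no target was lower (1.18% of 14678 genes), and Dram1 was called higher (1.43 ± 0.58, edgeR, unadjusted p = 0.0268, against 1.49% of genes). The median log2 fold change of the targets was -0.02, against -0.03 for all genes.

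Groups did not overlap for 6 targets that were lower in KO mice after ethanol (Fas, Perp, Phlda3, Trp53inp1, Ercc5 and Sesn1; 8.69% of all genes) and 2 that were higher (Plk3 and Ptp4a3; 4.04% of all genes). Fas was at 0.963, 1.11 and 2.11 CPM in WT and at 0.474, 0 and 0.634 CPM in KO libraries, where the 0 came from the shallow replicate 12. Perp was at 14.4, 8.99 and 8.61 CPM in WT and at 8.61, 6.69 and 6.47 CPM in KO libraries, its nearest WT and KO libraries differing by less than the rounding. Phlda3, an inhibitor of Akt signalling, was at 10.1, 18.9 and 10.2 CPM in WT and at 6.63, 6.69 and 8.44 CPM in KO libraries. None of these 3 passed the test (edgeR, unadjusted p = 0.137 for Fas, 0.309 for Perp and 0.119 for Phlda3). Dram1, a lysosomal protein of autophagy, had 1.13, 1.02 and 1.05 CPM in WT and 3.08, 0 and 3.11 CPM in KO libraries, and its log2 fold change of 1.28 ± 0.64 was not called (edgeR, unadjusted p = 0.0634). Ei24, lower in KO mice under saline, had a log2 fold change of -0.04 ± 0.35 after ethanol, and Shisa5 one of 0.26 ± 0.43.

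The main effect of Genotype compared KO with WT mice over both treatments. In all 12 libraries 5 targets were lower in KO mice (13.9%, against 3.67% of all genes), all of them apoptosis genes (Ei24, Fas, Perp, Phlda3 and Rps27l), and 1, Ddb2, was higher (2.78%, against 4% of all genes). Fas reached 2.11 CPM in WT libraries and at most 0.82 CPM in KO libraries. It passed the filter on low counts through WT libraries, so its call is no support for a lower level in KO mice. The median of the targets was -0.19, against -0.02 for all genes, no target passed an adjusted p of 0.30, and the lowest was 0.623. The main effect averages both treatments. For Ei24 and Rps27l the difference lay under saline (log2 -1.13 and -2.43) and not after ethanol (-0.04 and 0.30). Fas, Perp and Phlda3 had negative values under saline (-1.37, -1.43 and -0.68) and after ethanol (-1.36, -0.54 and -0.83). Perp was lowest in p, at 15.0 ± 10.8 CPM in WT and 7.25 ± 0.752 CPM in KO mice (SD, n = 6 each; log2 -0.98 ± 0.36, edgeR, unadjusted p = 0.0152). It was not called with library totals alone (-0.64) or in the two-way model of RPKM (-0.95). The exact permutation test of the 12 libraries between genotypes, two-sided and not adjusted for the other targets, gave p = 0.00433 for Perp and 0.188 for Cdkn1a. For the other called targets this permutation test gave p = 0.0779 (Phlda3), 0.0866 (Fas), 0.136 (Ei24), 0.186 (Ddb2) and 0.396 (Rps27l). Perp was singled out by its p in the same libraries. Cdkn1a was at 50.5 ± 30.1 CPM in WT and 31.7 ± 13.4 CPM in KO mice (SD, n = 6 each), 1.63-fold lower without passing the test (log2 -0.71 ± 0.38, edgeR, unadjusted p = 0.0798). WT and KO libraries overlapped for each of the 36 targets over both treatments.

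This count moved with the scaling and with single libraries. With library totals alone, 3 targets were higher (8.33%) and none lower, where the median of all genes was 0.21. In that setting 1007 of 14739 genes were higher and 105 lower. The count was 14 without KO ethanol replicate 12, 13 without WT saline replicate 3, 3 without WT saline replicate 1, WT saline replicate 13 or WT ethanol replicate 5, and 1 without KO saline replicate 7, KO ethanol replicate 10 or KO ethanol replicate 18. The share of all genes is not given for these fits, so their counts are not read as results about the targets. Without both shallow libraries, 2432 of 14967 genes were higher and 2683 lower, against 589 and 541 of 14739 in all 12 libraries. Without WT saline replicate 1, Perp was at -0.58 and Rps27l at -0.25, neither of them called. With the length and GC trends removed in all 12 libraries, Rps27l was at -0.14, Ei24 at -0.50 and Fas at -1.0, and these were not called.

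Among the 10 libraries whose label opens with P, the genotype difference covered many more genes. Here 37 targets were tested, Eda2r included, and 12 were lower in KO mice (32.4%, against 17.9% of the 14967 genes tested) and 4 higher (10.8%, against 16.2%). The 12 and their share include Eda2r and Fas, which passed the filter on low counts through WT libraries. At an adjusted p under 0.05, 8 targets were called, where 16.2% of all genes were, and at 0.30, 21 were, where 50.5% of all genes were. The median log2 fold change of the targets was -0.37, against -0.06 for all genes. The libraries opening with L number 1 in WT saline and 1 in KO ethanol, so no genotype difference within a treatment can be had among them. Without them, WT saline held only replicates 1 and 13, and KO ethanol only replicates 10 and 18.

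The targets lower at an adjusted p under 0.05 in the 10 libraries were Shisa5 (log2 -0.91 ± 0.20), Ei24 (-0.82 ± 0.20), Rps27l (-1.55 ± 0.39), Perp (-1.18 ± 0.32), Phlda3 (-0.95 ± 0.30), Pmm1 (-0.78 ± 0.24) and Abhd4, a lipid hydrolase (-0.98 ± 0.29), with adjusted p between 0.017 and 0.0477 by edgeR. In all 12 libraries Shisa5 and Pmm1, like Ei24 and Rps27l, were lower under saline (-1.33 and -1.12) but not after ethanol (0.26 and 0.69). Perp, Phlda3 and Abhd4 had negative values under both. In WT saline replicates 1 and 13, Rps27l was at 356 and 71.1 CPM and Perp at 36.4 and 13.4 CPM. No fit of the 10 libraries left out WT saline replicate 1. Fas (-1.55 ± 0.49), Eda2r (-1.90 ± 0.74), Cdkn1a (-1.05 ± 0.37), Trp53inp1 (-0.92 ± 0.37) and Dcxr (-0.94 ± 0.41) were lower at the unadjusted level. Eda2r reached 2.26 CPM in WT ethanol replicate 4 and 1.26 CPM in WT saline replicate 13, and at most 0.439 CPM in KO libraries. Eda2r thus passed the filter on low counts through WT libraries, as did Fas, which reached at most 0.82 CPM in KO libraries. The calls of Eda2r and Fas are therefore no support for a lower level in KO mice. For Cdkn1a, 4 of the 5 WT libraries (45.9, 54.9, 106 and 48.7 CPM) lay above all 5 KO libraries (22.3, 22.3, 36, 24.1 and 28.9 CPM), and WT ethanol replicate 14, at 20.2 CPM, lay below them (edgeR, adjusted p = 0.0684). The higher targets were Ddb2 (1.03 ± 0.32, edgeR, adjusted p = 0.0488), Polk (0.88 ± 0.32), Xpc (0.58 ± 0.23) and Pidd1, a death domain protein that activates caspase-2 (1.57 ± 0.58). Of the 12 lower targets 8 are apoptosis genes, Eda2r and Fas among them, and of the 4 higher ones 3 are DNA repair genes.

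Leaving out WT ethanol replicate 4 as well gave 9 lower targets (17.7% of 14801 genes) and 5 higher ones (18.4%), with Cdkn1a at -0.66 ± 0.29 and a targets' median of -0.22 against 0.03 for all genes. Eda2r did not pass the filter in that setting, and Fas was among the lower targets, under the limit given above. With the trends of fold change on transcript length and GC content removed in the 10 libraries, 13 targets were lower (21.5% of 14905 genes) and 4 higher (14.8%). Eda2r and Fas were again among the lower ones, under the same limit. In that setting Rps27l was at -0.26 ± 0.14 and no longer called (edgeR, unadjusted p = 0.083), and Shisa5 was at -0.56 ± 0.19 (edgeR, adjusted p = 0.0588). Ei24 (-0.77 ± 0.18), Abhd4 (-1.02 ± 0.26), Phlda3 (-1.21 ± 0.33), Perp (-0.95 ± 0.27) and Trp53inp1 (-0.96 ± 0.29) were lower and Ddb2 and Polk higher at an adjusted p under 0.05 by edgeR. Both settings were added after the values had been seen.

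**Figure D3:**
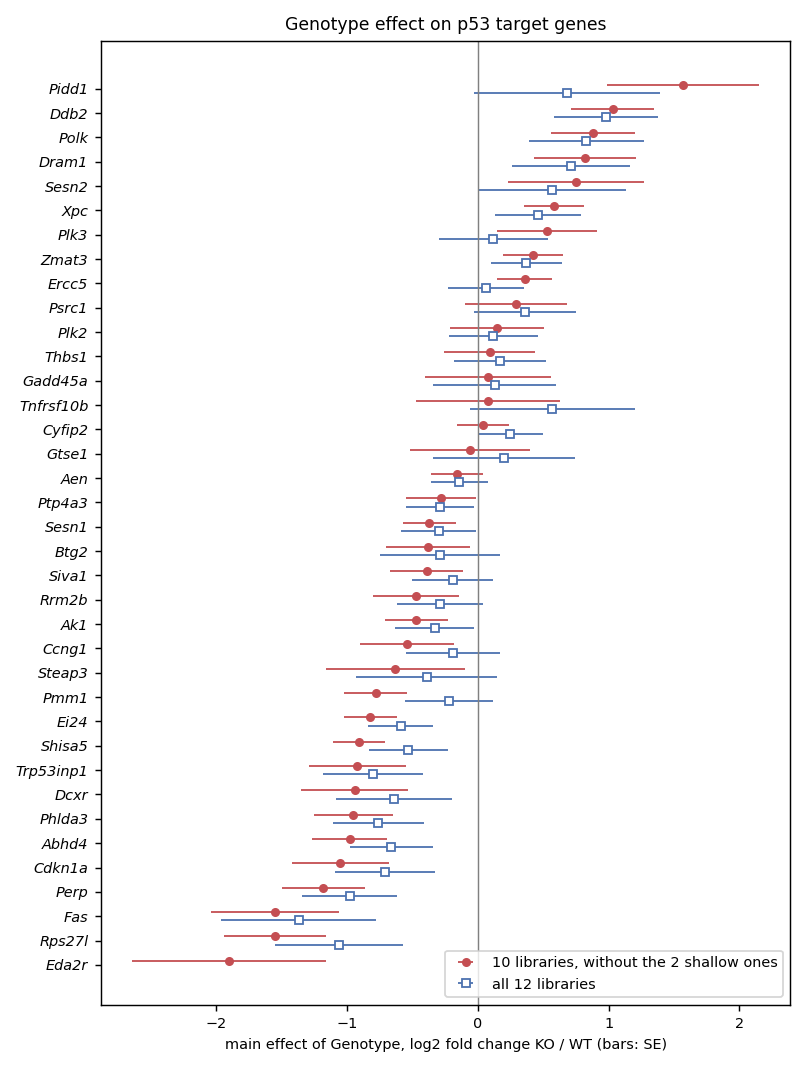
Main effect of Genotype on each target as log2 fold change of KO over WT (horizontal axis, bars are SE), from all 12 libraries (open squares) and from the 10 libraries whose label opens with P (filled circles), ordered by the latter. In the 10 libraries, 10 of the 15 apoptosis genes lie left of 0, with Rps27l at -1.55, as does Cdkn1a at -1.05. Fas and Eda2r, also left of 0, passed the filter on low counts through WT libraries. The other 5 apoptosis genes lie right of 0, with Pidd1 (1.57) the farthest right of all targets, beside Ddb2 (1.03) and Polk (0.88).

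The interaction of Genotype and Treatment, the log2 response to ethanol of KO mice less that of WT mice, was tested for each target. It was positive for Ei24, Pmm1, Ptp4a3, Rps27l and Shisa5 (13.9% of the targets, against 7.5% of all genes) and negative for Sesn2 (2.78%, against 7.67%). At an adjusted p under 0.30, 5 targets were called (13.9%), where 11.1% of all genes were, and none were with the length and GC trends removed or in the 3 fits on RPKM. The largest was Sesn2, at -2.75 ± 1.14 (edgeR, adjusted p = 0.293), which rose after ethanol in WT mice and had 8.37, 0 and 7.04 CPM after ethanol in KO mice. Without KO ethanol replicate 12, the library at 0, its interaction still passed the unadjusted threshold, and it did not without WT ethanol replicate 4 (-2.18) or KO saline replicate 9 (-2.25). Its value was -2.13 without WT saline replicate 1 and -3.73 without WT saline replicate 13.

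Rps27l had an interaction of 2.72 ± 0.98 (edgeR, adjusted p = 0.26), which was 1.12 and not called without WT saline replicate 1. Pmm1, at 110, 356 and 101 CPM after ethanol in KO mice, had one of 1.81 ± 0.69 (edgeR, adjusted p = 0.267), which was 0.99 and not called without the shallow KO ethanol replicate 12. Shisa5 (1.60 ± 0.61, adjusted p = 0.267 by edgeR) was not called without WT saline replicate 13 (1.34), and Ptp4a3 (1.33 ± 0.53, adjusted p = 0.277 by edgeR) without WT saline replicate 13 (1.13) or KO saline replicate 8 (1.07). Ptp4a3 was also not called with library totals alone (0.95). Ei24 (1.09 ± 0.50, unadjusted p = 0.0448 by edgeR) was called in 3 of the 12 fits that left out 1 library, with values from 0.92 to 1.42. With the length and GC trends removed, Rps27l was at 0.61, Shisa5 at 0.65 and Pmm1 at 1.34, none of them called. All 5 DNA repair genes had a negative interaction, with a median of -1.17 against -0.11 for all genes, and none was called. With library totals alone the calls were 1 positive and 3 negative (2.78% and 8.33%), where the median of all genes was -0.52. In that setting 440 of 14739 genes were positive and 1852 negative. The interaction contains both contrasts with WT saline, so its genes are not a further set of evidence.

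Over the 6 comparisons in all 12 libraries, 13 of the 36 tested targets (36.1%) were called at least once at an unadjusted p under 0.05, against 31.7% of all genes, and 23 were not called in any. The 23 include 8 of the 9 cell cycle genes (Cdkn1a, Ccng1, Gtse1, Psrc1, Plk2, Plk3, Btg2 and Gadd45a), the apoptosis genes Tnfrsf10b, Aen, Pidd1, Siva1, Cyfip2, Dram1 and Zmat3, the repair genes Xpc, Ercc5 and Rrm2b, and Sesn1, Ak1, Abhd4, Steap3 and Thbs1. Their log2 values ran from -1.41 (Rrm2b, interaction) to 1.75 (Tnfrsf10b, ethanol in KO mice). Levels of the weaker ones rested on few reads, as for Gtse1, a regulator of G2 phase, with 0 to 72 counts, and Steap3, a ferrireductase, with 3 to 154 counts.

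Fold changes of the targets went with transcript length in most comparisons. The 7 targets lower in KO mice under saline had a median length of 1300 bases (499 to 3539) and the 3 higher ones one of 3475 bases (1557 to 4225). Across the 36 targets, Spearman's rho of length and fold change was 0.67 for KO versus WT mice under saline, 0.46 for ethanol in WT mice, -0.53 for ethanol in KO mice, 0.43 for the main effect of Genotype, -0.60 for the interaction and -0.17 for KO versus WT mice after ethanol. These are correlations across genes that share the same libraries, given without a test. After removal of the trends of fold change on length and GC content over all genes, 3 targets were called lower in KO mice under saline (8.33%, against 9.46% of all genes) and 3 higher (8.33%, against 5.39%), so the share of lower targets no longer exceeded that of all genes. What the trend comes from was not tested.

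**Figure D4:**
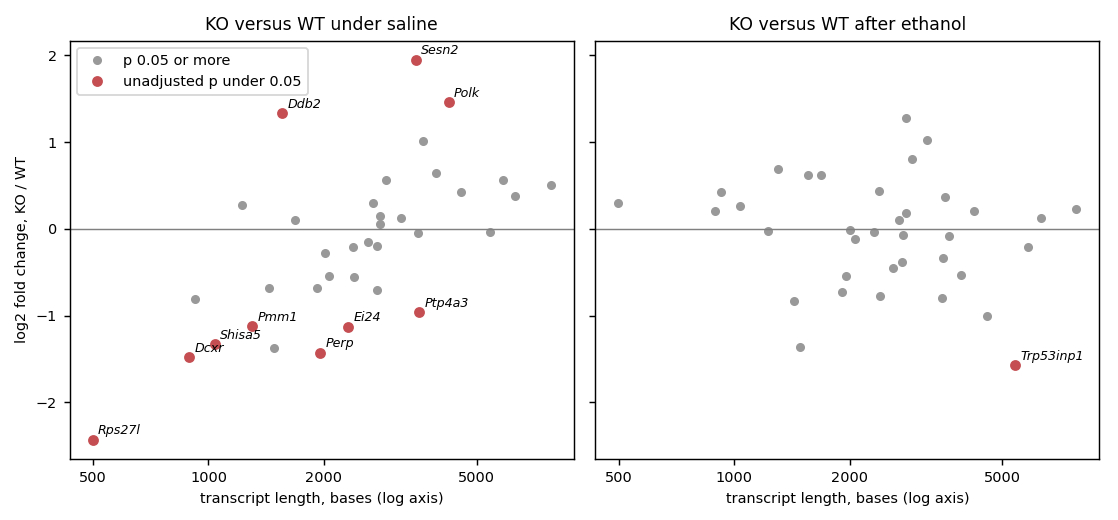
Transcript length in bases (horizontal, log axis) against log2 fold change of KO over WT mice for the 36 tested targets, under saline (left) and after ethanol (right), with targets at an unadjusted p under 0.05 in red and named. Under saline the shortest target, Rps27l (499 bases), is the lowest and the higher targets include Polk (4225 bases), and after ethanol Trp53inp1 (5404 bases) is the only one called.

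Other genes of the p53 signaling pathway, 46 that are not among the 37 and of which 44 were tested, gave 3 higher and 6 lower calls after ethanol in WT mice (6.82% and 13.6%, against 9.99% and 8.36% of all genes), 4 higher and 2 lower in KO mice under saline (9.09% and 4.55%, against 9.14% and 10.5%), and none for the main effect of Genotype (0.623 was their lowest adjusted p by edgeR). Mdm2 was at 12.5, 20.6 and 17.6 CPM in WT saline and at 34.4, 31.4 and 30.2 CPM in WT ethanol libraries, without overlap (log2 0.93 ± 0.32, edgeR, unadjusted p = 0.0118, adjusted p = 0.208). KO libraries held 26.1, 25.4 and 27.8 CPM of Mdm2 under saline and 28.3, 40.1 and 30.9 CPM after ethanol, all above the WT saline libraries (0.65 ± 0.32 for KO versus WT under saline, edgeR, adjusted p = 0.273). Bax, the pore-forming apoptosis effector, was at 254, 120 and 130 CPM in WT saline and at 48.0, 90.1 and 98.5 CPM in WT ethanol libraries (-1.09 ± 0.39, edgeR, adjusted p = 0.209), and at 102, 71.0 and 58.4 CPM in KO saline libraries (-1.12 ± 0.39, edgeR, adjusted p = 0.179). Ccnd2 (cyclin D2) was higher in both of these comparisons (1.29 ± 0.54 and 1.44 ± 0.54), as was Mdm4, an inhibitor of p53 (1.09 ± 0.50 and 1.38 ± 0.51). Rprm (Reprimo), a G2 arrest gene, was lower after ethanol in WT mice (-1.32 ± 0.38), and Atm, the kinase that signals DNA breaks to p53, was higher in KO mice under saline (1.00 ± 0.38).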

How the data were processed

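Stranded total RNA-seq of the cortex was read with single ends. The authors aligned reads with Bowtie2 within TopHat to mm10 (GRCm38) and quantified RefSeq transcripts in Partek Flow, whose version and settings are not given in the sources used here. The deposited estimated counts, 1 per transcript and library, are not scaled. The deposited RPKM values were also made by the authors in Partek, and after sorting they coincided within 0.1% between all libraries at 99.7% of 20504 ranks, so they had been quantile normalized. RPKM served for levels between genes and for alternatives.

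Counts were summed per symbol, rounded and fitted in edgeR 4.0.16 (R 4.3.3) by a quasi-likelihood model of 1 mean per group over 12 libraries, after the default filter and TMM scaling. This left 14739 of 24452 symbols and 6 contrasts, tested two-sided with Benjamini-Hochberg adjustment over all symbols. CPM are TMM-normalized. Calls used an unadjusted p under 0.05, as in the study's contrasts, and adjusted levels of 0.05 and of 0.30, the study's level. SEs were derived from the F statistics. Exact permutations of 3 libraries against 3 cannot go below p = 0.1, so they were used only for 6 against 6, on log2(CPM + 0.5). Total counts ranged from 719735 to 17066392, and intervals of counts of 0 cover counting error only. Coordinates are those of mm10.

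Groups came from the labels, and library numbers are not shared between groups. Genes reported with every library value were Cdkn1a, Ccng1, those at an adjusted p under 0.30 in any contrast and otherwise the 3 smallest p in a contrast, besides Trp53, Mdm2 and 5 other pathway genes. Fas, Phlda3 and the genes named from the 10 libraries were chosen after their values had been seen. The members, lists and settings were chosen with earlier results of these data known. The fitting code was tested on simulated data. Alternatives were other scalings, filters, tools (DESeq2 1.42.0, limma 3.58.1, a linear two-way model of RPKM), the transcript with the highest count, removal of length and GC trends, and fits without single libraries or without both shallow ones.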

Additional observations from a re-analysis of the deposited data

Results flagged for a closer look

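An unequal response to ethanol in WT and KO mice was called for 5 of the 36 targets tested, by the interaction term in edgeR at an adjusted p under 0.30. This is 13.9% of them, close to the 11.1% of all genes, and the count was 0 with length and GC trends removed, by limma on either RPKM scale and in the two-way model of RPKM. The difference, KO minus WT on the log2 scale, was 2.72 for Rps27l, 1.81 for Pmm1, 1.60 for Shisa5, 1.33 for Ptp4a3 and -2.75 for Sesn2, and none passed an adjusted p of 0.05. In the WT mice Rps27l, Pmm1, Shisa5 and Ptp4a3 were lower after ethanol and Sesn2 was higher, while in KO mice none of the 5 was called. The value for Rps27l was 1.12 without WT saline replicate 1, and that for Pmm1 was 0.99 without KO ethanol replicate 12.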

How the results depend on the processing

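With library totals in place of TMM factors, the split of calls turned from 1 higher and 5 lower to 6 and 3 for ethanol in WT mice, from 3 and 7 to 6 and 1 for KO versus WT under saline, from 1 and 5 to 3 and 0 for the main effect of Genotype and from 5 and 1 to 1 and 3 for the interaction. All genes moved likewise. With library totals, 2676 were higher and 318 lower, 2527 and 472, 1007 and 105, and 440 and 1852, of 14739, in the same order. Without both shallow libraries the counts were 10 for ethanol in WT mice, 1 for ethanol in KO mice, 18 for KO versus WT mice under saline, 4 after ethanol and 16 for the main effect of Genotype, against 6, 0, 10, 1 and 6. Of the 14967 genes tested there, 2831 were higher and 2751 lower for ethanol in WT mice, against 3 and 7 of 37 targets. For ethanol in KO mice these were 166 and 437, against 0 and 1 targets. For KO versus WT mice they were 2923 and 2940 under saline, against 7 and 11, and 446 and 504 after ethanol, against 2 and 2. For the main effect they were 2432 and 2683, against 4 and 12. Restricted to genes with at least 10 counts in every library, which keeps 15 targets, KO versus WT gave 5 under saline and 0 after ethanol. The main effect of Genotype gave 1 there. Among 7624 genes, 766 were higher and 1015 lower under saline, 99 and 165 after ethanol, and 270 and 234 for the main effect. Removal of length and GC trends gave 6 under saline and 3 for the interaction. Among 14678 genes, 791 were higher and 1389 lower under saline, and 986 and 457 for the interaction. For KO versus WT under saline, the transcript with the highest count gave 6, limma on log2(RPKM + 1) and on log2(RPKM + 0.1) gave 6 each, and the two-way model of RPKM gave 5. All genes called higher and lower were 1240 and 1442 of 14637 for that transcript. Among 14739 genes they were 987 and 809, and 1006 and 682, with limma, and 805 and 813 with the two-way model. For the main effect of Genotype, library totals gave 3, limma 2 with either pseudocount and the two-way model 0, and the settings added later, without the shallow libraries, gave 17 with length and GC trends removed and 14 without WT ethanol replicate 4. All genes called higher and lower were 366 and 462, and 370 and 397, of 14739 with limma, and 295 and 437 with the two-way model. The two-way model gave 0 and DESeq2 2 for KO versus WT after ethanol, and for ethanol in KO mice DESeq2 and a fit of only these groups gave 1 each. For KO versus WT after ethanol, all genes higher and lower were 242 and 368 of 14739, and 269 and 346 of 14669 with DESeq2. For ethanol in KO mice they were 331 and 252 of 14669 with DESeq2, and 228 and 409 of 14333 with only these groups. Leaving out 1 library in turn gave 3 to 9 for ethanol in WT mice, 0 to 4 for ethanol in KO mice, 5 to 13 for KO versus WT under saline, 0 to 3 after ethanol, 1 to 14 for the main effect of Genotype and 3 to 9 for the interaction. The share of all genes is not given for these fits, so the ranges are not read as results about the targets. The main effect on Ccng1, -0.19, was 0.03 with library totals and ranged from -0.42 to 0.01 without 1 library, the latter without KO saline replicate 7. The causes were not tested. No paired analysis was possible because the groups share no replicate numbers. At an adjusted p under 0.30, the 8, 11 and 5 targets called for ethanol in WT mice, KO versus WT under saline and the interaction were 0 in each with either limma fit and the two-way model. In those fits at most 356, 419 and 16 of 14739 genes passed, in the same order. Depth limits the targets under 10 counts, 22 of 37 in KO ethanol replicate 12.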
